A study of Mus musculus with 16 samples.

Results

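The results below set one promoter against another as the starting point of a contact map, in the same wild-type cells. The series holds 16 4C-seq libraries of mouse embryonic fibroblasts taken at E13.5 and grown to passage 4, and 8 of them are compared here. They are the 4 Rb1+/+ libraries whose viewpoint is the promoter shared by Pole and Pxmp2 on chromosome 5 (called Pole) and the 4 Rb1+/+ libraries whose viewpoint is the promoter shared by Cdca3 and Usp5 on chromosome 6 (called Cdca3). No agent was given and the cells were proliferating. Libraries of equal replicate number carry the same identifier of a fibroblast pair at both viewpoints, so each number was taken as 1 culture read from 2 promoters. The other 8 libraries are from Rb1L/L fibroblasts, whose Rb1 allele is altered, and serve here only as separate cultures in which the same comparison was repeated.

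In 4C, DNA that lay close to the viewpoint in the crosslinked nucleus is ligated to it, and the ligated partners are read out by PCR outward from the viewpoint. Contacts within the viewpoint's own chromosome (in cis) usually outweigh those with other chromosomes (in trans) and thin out with distance, and trans contacts tend to join stretches of chromatin of similar activity. Pole encodes the catalytic subunit of DNA polymerase epsilon, which copies DNA in S phase, and Pxmp2 a channel protein of the peroxisome membrane. Cdca3 encodes a cell cycle protein that helps cells enter mitosis, and Usp5 a deubiquitinase that takes apart unanchored ubiquitin chains.

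The promoter itself is shown because all values of the Cdca3 libraries are contacts of this locus. Of the 4 genes, 1 (Cdca3) had an entry in the RefSeq promoter table of build GRCm38.p6, at chr6:124829926-124830175 on the plus strand, the 250 bases before the annotated start. Capitals mark the letters CATG, which NlaIII, the second enzyme of the assay, cuts.
Cdca3: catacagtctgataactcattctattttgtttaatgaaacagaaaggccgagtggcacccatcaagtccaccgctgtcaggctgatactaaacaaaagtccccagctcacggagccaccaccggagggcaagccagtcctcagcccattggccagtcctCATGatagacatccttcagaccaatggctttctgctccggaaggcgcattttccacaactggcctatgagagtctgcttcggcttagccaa
CATG occurs 1 time in this stretch and in 53.9% of 32851 promoter stretches of the same length, counting both strands. The letters AAGCTT of HindIII, the first enzyme, have 0 matches here and are found in 6.22% of those stretches. The E2F-type letters TTTCGCGC (0.256% of stretches), TTTGGCGC (0.417%), TTTCCCGC (0.895%) and TTTGCCGC (0.338%) and the CHR letters TTTGAA (16.0%) each have 0 matches as well.

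Cdca3 libraries listed about 2-fold as many sites as Pole libraries, and most of the gap lay outside the viewpoint's chromosome. A listed site is a restriction site that the authors' caller passed as in contact with the viewpoint. In replicates 1 to 4, 71.6, 87.4, 78.1 and 69.4% of Pole entries and 88.2, 98.3, 90.0 and 95.7% of Cdca3 entries were 6 bp wide. The rest had other widths, up to 20 bp, and were counted alike. What the other widths stand for was not examined. The Pole libraries of replicates 1 to 4 listed 7925, 9569, 15828 and 17522 sites, and the Cdca3 libraries 19972, 24497, 27478 and 30820. The groups did not overlap, and the Pole library was the smaller in 4 of 4 pairs. The means were 12711 ± 4678 for Pole and 25692 ± 4606 for Cdca3 (SD, n = 4 each), a ratio of 2.02 (Cdca3 over Pole). The difference was -12981 sites, with a 95% interval of -22895 to -2450 (exact two-sided permutation test, p = 0.0286, the smallest that 4 against 4 libraries can give).

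In cis the site numbers overlapped. Pole listed 4745, 5497, 8708 and 8793 sites on chromosome 5 and Cdca3 listed 6170, 6935, 9316 and 9349 on chromosome 6. These ranges overlapped, although Pole was lower in 4 of 4 pairs, and the means of 6936 ± 2118 and 7942.5 ± 1635 differed by -1007 sites (95% interval -4604 to 2623, exact permutation p = 0.457). Trans sites were counted on the 17 autosomes other than chromosomes 5 and 6, so that neither viewpoint's own chromosome enters. There, Pole listed 2823, 3623, 6440 and 7889 sites and Cdca3 listed 12288, 16044, 16425 and 19300. The highest Pole library lay below the lowest Cdca3 library, and the means of 5194 ± 2374 and 16014 ± 2878 gave a ratio of 3.08 (difference -10820.5, 95% interval -16477 to -4399, exact permutation p = 0.0286).

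**Figure D1:**
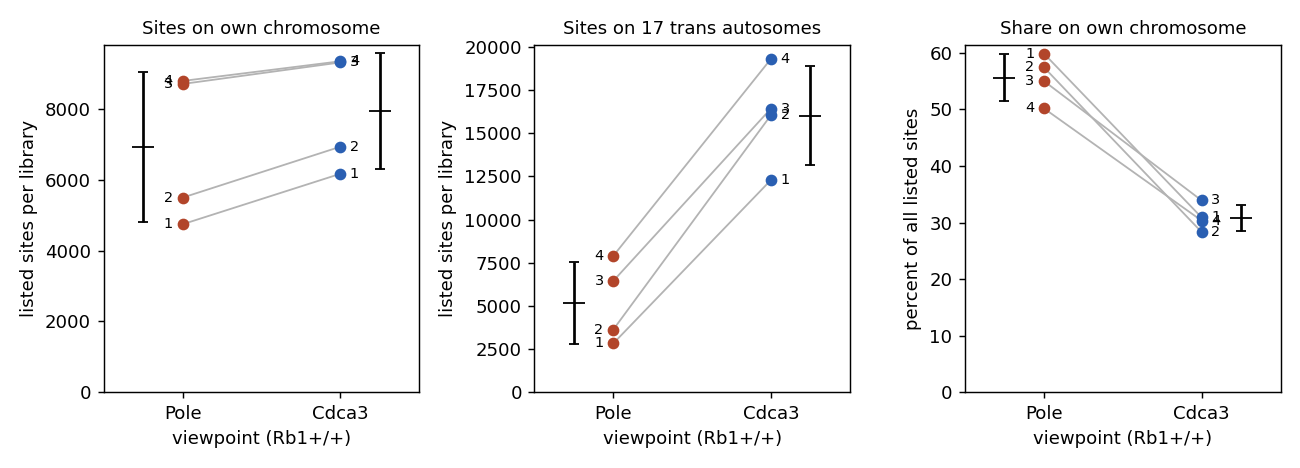
Listed sites on the viewpoint's own chromosome, listed sites on the 17 trans autosomes, and the cis share in percent of all listed sites, for the 8 Rb1+/+ libraries; points are libraries numbered by replicate, grey lines join libraries of 1 culture, and black bars are the mean ± SD (n = 4). Cis numbers overlap, while the trans numbers (2823 to 7889 against 12288 to 19300) and the cis shares (50.2 to 59.9% against 28.3 to 33.9%) do not.

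The cis share, the percent of a library's listed sites on the viewpoint's chromosome, was accordingly higher at Pole. It was 59.9, 57.4, 55.0 and 50.2% at Pole and 30.9, 28.3, 33.9 and 30.3% at Cdca3. No values overlapped, and Pole was higher in 4 of 4 cultures. The means were 55.6 ± 4.14% and 30.9 ± 2.31% (SD, n = 4), a difference of 24.8 percentage points (95% interval 16.3 to 31.6, exact permutation p = 0.0286). Rb1L/L cultures gave 52.8 ± 5.35% and 28.0 ± 4.14%, again higher at Pole in 4 of 4, and the gap of 24.7 points differed from that in Rb1+/+ by 0.0234 points (exact permutation test of the 4 against 4 paired differences, p = 1). Viewpoint and library size move together: the largest Pole library, with 17522 sites, had a cis share of 50.2%, and the smallest Rb1+/+ Cdca3 library, with 19972 sites, had 30.9%. An Rb1L/L Cdca3 library with fewer sites, 15802, had 33.3%. Within Pole, cis share fell as lists grew: 59.9, 57.4, 55.0 and 50.2% in Rb1+/+ from 7925 to 17522 sites. In Rb1L/L it was 59.7, 54.1, 49.6 and 47.6% at 6485, 14103, 15664 and 16989 sites. Rb1L/L Cdca3 shares also fell, from 33.3% at 15802 sites to 24.3% at 39650. Those of Rb1+/+ Cdca3 did not follow list size. A part of list size in the gap was not tested. Read depth is unknown, so a property of the promoter and the yield of its PCR cannot be told apart. Across the 9 single values compared in these libraries (site numbers, shares, slope and occupied windows), Benjamini-Hochberg adjustment brought the 3 p-values of 0.0286 from exact permutation to 0.0857.

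The next question was how cis sites thin out with distance. Listed sites were absent from a stretch around each promoter, 2.61 Mb on chromosome 5 (chr5:109110988-111716060, mm9) and 3.05 Mb on chromosome 6 (chr6:122734336-125781765, mm9), and distance was measured from the middle of that stretch. This leaves 107.2 Mb of chromosome toward the centromere and 41.6 Mb toward the telomere at Pole, and 120.7 Mb and 24.9 Mb at Cdca3. Of the cis sites, 22.9, 21.2, 22.4 and 19.8% lay within 10 Mb at Pole and 21.5, 21.0, 20.5 and 19.4% at Cdca3. The ranges overlapped and the means of 21.6 ± 1.37% and 20.6 ± 0.895% differed by 0.991 points (95% interval -1.68 to 3.47, exact permutation p = 0.257). The sign of this difference depended on the boundary and the position: within 5 Mb it was -1.74 points, within 20 Mb 5.95 points (exact permutation p = 0.0286), and from either end of the empty stretch -1.83 and -2.0 points, the 20 Mb value being the only one of these to pass unadjusted.

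Fall-off was expressed as a slope, the change in log2 sites per Mb for each doubling of distance between 2 and 64 Mb on the centromeric side. It was -0.234, -0.379, -0.440 and -0.359 at Pole and -0.267, -0.291, -0.243 and -0.207 at Cdca3. Site density did not fall evenly over this range. Pole replicate 1 listed 82.5 sites per Mb from 2 to 4 Mb, 30.6 from 8 to 16 Mb and 41.8 from 16 to 32 Mb. From the 16 to 32 Mb bin to the 32 to 64 Mb bin, density rose in every Cdca3 library and fell in every Pole library. The fitted slope was negative in all 8 libraries and steeper at Pole in 3 of 4 cultures, and the slopes of the groups overlapped. The means of -0.353 ± 0.0866 and -0.252 ± 0.0357 differed by -0.101 (95% interval -0.233 to 0.0569, exact permutation p = 0.114). Counted per distinct site that any library of the series listed, in place of per Mb, the difference was 0.105, and measured from the centromeric end of the empty stretch it was 0.413 (exact permutation p = 0.0286), so no order of steepness between the promoters is given.

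Distance bins showed where the profiles parted. Between 10 and 20 Mb on the centromeric side, Pole listed 14.8, 12.8, 14.1 and 12.4 sites per Mb per 1000 cis sites and Cdca3 7.24, 6.71, 5.40 and 5.49. Every Pole library lay above every Cdca3 library, with means of 13.52 ± 1.13 and 6.21 ± 0.912 (exact permutation p = 0.0286, 0.0367 after Benjamini-Hochberg over 9 bins). Further out the order turned: between 20 and 40 Mb the means were 5.63 ± 0.693 at Pole and 8.97 ± 0.462 at Cdca3, between 40 and 60 Mb 6.20 ± 0.272 and 7.41 ± 0.491, and between 60 and 100 Mb 3.19 ± 0.528 and 5.05 ± 0.116, each without overlap and with the same p-values. Close to the promoter on the telomeric side, from 2 to 5 Mb, Pole listed 16.4, 11.2, 9.84 and 12.9 and Cdca3 26.4, 24.8, 19.6 and 20.6, again without overlap (means 12.6 ± 2.85 and 22.8 ± 3.25). From 5 to 10 Mb on that side Pole was the higher, at 6.32 ± 1.62 against 2.51 ± 0.362, and from 10 to 20 Mb the lower, at 6.77 ± 0.921 against 9.13 ± 1.03. From 20 to 40 Mb telomeric Pole listed 9.63 ± 0.556, a bin that the shorter arm at Cdca3 does not span. It held 19.3 ± 1.11% of Pole cis sites, which count in the total that every Pole bin is divided by. On the centromeric side the bins from 2 to 5 Mb (18.1 ± 3.72 and 18.8 ± 1.80) and from 5 to 10 Mb (9.80 ± 1.78 and 8.15 ± 2.08) overlapped, with exact permutation p of 0.771 and 0.257. Without division by cis sites, exact permutation p stayed 0.0286 at 10 to 20 Mb centromeric and at 2 to 5 and 5 to 10 Mb telomeric. For plain sites per Mb it was 0.0571 at 20 to 40 and 60 to 100 Mb centromeric and at 10 to 20 Mb telomeric. At 40 to 60 Mb it was 0.171.

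The number of distinct sites listed by any library, counted from the same lists, moved with these densities. In the centromeric 10 to 20 Mb bin, all 16 libraries together listed 1692 distinct sites on chromosome 5 and 648 on chromosome 6, and in the telomeric 5 to 10 Mb bin 536 and 167. As a percent of those distinct sites, the Pole libraries listed 41.5, 41.7, 72.5 and 64.2% in the former bin and the Cdca3 libraries 69.0, 71.8, 77.6 and 79.2%. The means were 55.0 ± 15.8% and 74.4 ± 4.81% (exact permutation p = 0.0857, 0.300 after adjustment over 9 bins). On this scale 0 of 9 bins passed, and the one bin without overlap was 2 to 5 Mb telomeric, with 50.5 ± 13% at Pole and 87.9 ± 6.48% at Cdca3 (exact permutation p = 0.0286, adjusted 0.257). This percent measures how fully libraries repeated the sites of a bin and does not correct for the restriction sites available there, whose part in the differences per Mb was not tested.

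**Figure D2:**
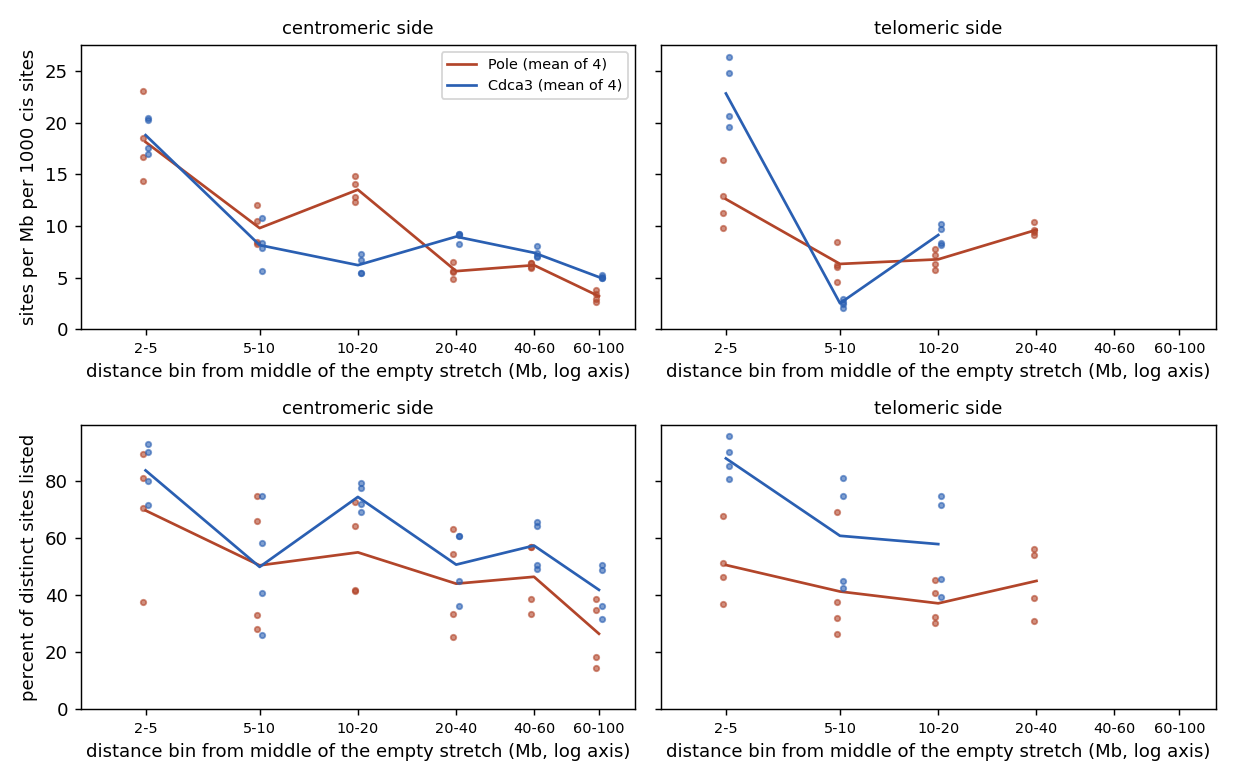
Cis sites by distance bin (log axis, Mb from the middle of the empty stretch) on either side of the promoter, as sites per Mb per 1000 cis sites (top) and as percent of the distinct sites listed by any of 16 libraries (bottom); points are the Rb1+/+ libraries and lines the means of 4. Pole is above Cdca3 from 10 to 20 Mb centromeric in the top row (13.52 against 6.21) and below it in the bottom row (55.0 against 74.4%). Bins that reach past the end of a chromosome arm hold no points.

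Trans sites were then compared as shares of each library's own sites on the 17 autosomes. Shares remove the difference in total but do not correct for list length. By chromosome, 1 of 17 passed (5.88%; limma with the culture as block, adjusted p under 0.05), chromosome 11, which was lower at Pole. It held 4.32, 5.60, 5.71 and 7.0% of trans sites at Pole and 8.68, 9.14, 8.82 and 8.79% at Cdca3. No values overlapped, the Cdca3 libraries lay close together, and Pole was lower in 4 of 4 cultures. The Pole shares rose in the order of trans list size (2823, 3623, 6440 and 7889 sites), while the Cdca3 shares did not follow list size. A part of list length in this difference was not tested. The means were 5.66 ± 1.09% and 8.85 ± 0.198% (log2 difference -0.67 ± 0.16 SE, limma adjusted p = 0.0026). Exact permutation gave an adjusted p of 0.162 over the 17 chromosomes, and limma gave 0.0600 without replicate 1 and 0.0517 without replicate 3. In Rb1L/L cells the log2 difference was -0.20 (limma adjusted p = 0.402), and the difference between genotypes did not pass (exact permutation p = 0.0857, adjusted 0.486).

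Along chromosome 11 the share was lower at Pole in several segments. From 100 to 120 Mb, Pole had 0.496, 2.15, 2.05 and 1.79% of its trans sites and Cdca3 3.04, 3.10, 2.98 and 2.75%, with no overlap (1.62 ± 0.766% and 2.97 ± 0.155%). From 60 to 80 Mb the means were 1.71 ± 0.433% and 2.65 ± 0.294%, and from 80 to 100 Mb 1.64 ± 0.470% and 2.06 ± 0.181%, Pole being lower in 4 of 4 cultures in both. The segment from 20 to 40 Mb had 0 listed sites in all 8 libraries, and that from 40 to 60 Mb held 0.0282% at Pole and 0.349% at Cdca3. The first 20 Mb held 0.193% at Pole and 0.473% at Cdca3, with Pole lower in 3 of 4 cultures. The last segment, from 120 to 122 Mb, held 0.469% at Pole and 0.356% at Cdca3, with Pole higher in 2 of 4. In Rb1L/L cells the 100 to 120 Mb segment held 2.79% at Pole and 2.48% at Cdca3, the reverse order.

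Chromosomes 1 and 3 also had groups without overlap, which makes 3 of 17 (17.6%), but neither passed the test. Chromosome 1 held 6.91, 5.66, 6.24 and 6.71% at Pole and 8.66, 8.01, 8.39 and 8.55% at Cdca3 (log2 difference -0.40 ± 0.15, limma adjusted p = 0.0669), and it was lower at Pole in 4 of 4 Rb1L/L cultures too. Chromosome 3 held 9.35, 7.89, 6.65 and 7.06% at Pole against 5.35, 6.44, 6.08 and 6.30% at Cdca3 (0.35 ± 0.16, limma adjusted p = 0.116), and was higher at Pole in 4 of 4 Rb1L/L cultures. Within chromosome 3 the segment from 120 to 140 Mb had 3.33, 1.79, 2.02 and 2.40% at Pole and 0.863, 0.817, 1.24 and 1.33% at Cdca3, without overlap. Chromosome 19 was lower at Pole in 4 of 4 cultures (1.92 ± 0.639% and 2.52 ± 0.462%, limma adjusted p = 0.0669). Chromosomes 4 and 7 were higher at Pole in 4 of 4, at 9.54 ± 2.12% against 7.37 ± 0.870% and at 9.98 ± 2.00% against 8.32 ± 0.763%, with overlap and limma adjusted p of 0.116 and 0.251. In Rb1L/L cells it was chromosome 7 that passed, 1 of 17, with a log2 difference of 0.51 (limma adjusted p = 0.0457), and its difference between genotypes did not pass (exact permutation p = 0.0571, adjusted 0.486).

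**Figure D3:**
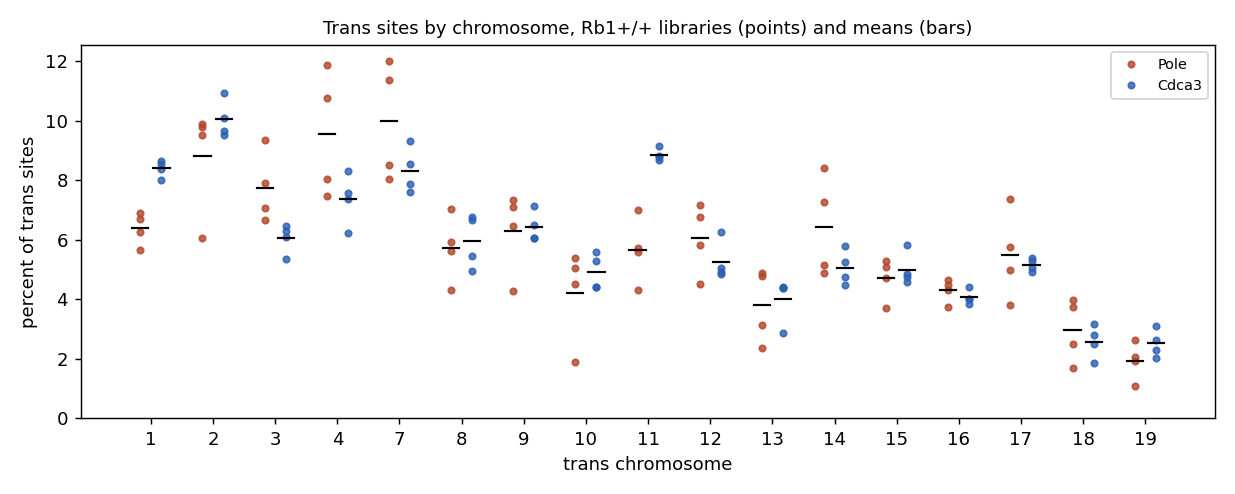
Percent of trans sites on each of 17 autosomes in the 4 Pole and 4 Cdca3 Rb1+/+ libraries (points) with the means (bars). Chromosome 11 is lower at Pole (5.66 against 8.85%), chromosomes 1 and 3 are also without overlap, and on all 17 the Pole points have the larger SD.

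Shares at chromosome ends overlapped between the promoters. The ends were taken as the first and last site that any library of the series listed on a chromosome. The last 10 Mb of the 17 chromosomes held 25.3, 23.0, 20.1 and 18.8% of trans sites at Pole and 20.5, 17.6, 17.2 and 18.4% at Cdca3. Pole was higher in 4 of 4 cultures (21.8 ± 2.94% and 18.4 ± 1.45%, difference 3.40 points, 95% interval -1.68 to 8.11, exact permutation p = 0.0857). In Rb1L/L cells the means were 21.0 ± 1.19% and 18.5 ± 1.94%, higher at Pole in 4 of 4. The first 10 Mb held 0.673, 4.28, 2.72 and 3.56% at Pole and 2.97, 4.21, 3.90 and 3.48% at Cdca3, with an exact permutation p of 0.429. This stretch starts at the first listed site and need not adjoin the centromere. On chromosome 3, for example, 0 windows lay between 0 and 20 Mb. Each promoter's libraries also listed sites on the other promoter's chromosome: chromosome 6 held 6.61 ± 1.77% of the Pole sites outside chromosome 5, and chromosome 5 held 7.34 ± 0.357% of the Cdca3 sites outside chromosome 6.

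The 17 autosomes were divided into 2001 windows of 1 Mb, from the first to the last site listed on each chromosome in the series. Windows without a site were kept, and 1025 had none in any Rb1+/+ library. Pole libraries had a site in 196, 261, 503 and 526 windows and Cdca3 libraries in 490, 561, 697 and 689. The lists are clustered: the 100 fullest windows of a library held 84.3, 72.6, 40.1 and 37.1% of its trans sites at Pole and 38.9, 32.5, 27.9 and 26.8% at Cdca3. Pole replicates 1 and 2, the smallest lists, were the most concentrated. With each library reduced by calculation to 2823 sites, the size of the smallest, the expected numbers of occupied windows were 196, 255, 463 and 477 at Pole and 442, 504, 608 and 607 at Cdca3. Pole was lower in 4 of 4 cultures, with means of 348 ± 143 and 540 ± 81.6 (difference -193, 95% interval -412 to 34.9, exact permutation p = 0.0857). Rb1L/L libraries gave 357 ± 128 and 566 ± 122, lower at Pole in 4 of 4.

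Most windows that met one promoter also met the other. Of all 2001 windows, at least 1 Pole library listed a site in 761 and at least 1 Cdca3 library in 864. The 649 windows in both are 85.3% of the Pole windows and 75.1% of the Cdca3 windows. Replicates repeated their windows less fully at Pole, where 80 windows had a site in 4 of 4 libraries against 374 at Cdca3. Of these, 72 were the same windows, 90.0% of the Pole set and 19.3% of the Cdca3 set. Over all 2001 windows, 374 were in the Cdca3 set and 80 in the Pole set. The overlap that these numbers of windows would give by themselves was not calculated. In the opposite corner, 21 windows had a site in all 4 Cdca3 libraries and none in Pole, and 0 windows had a site in all 4 Pole libraries and none in Cdca3. The lists stop at a threshold and the Pole lists are shorter, so these counts are not corrected for list length.

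**Figure D4:**
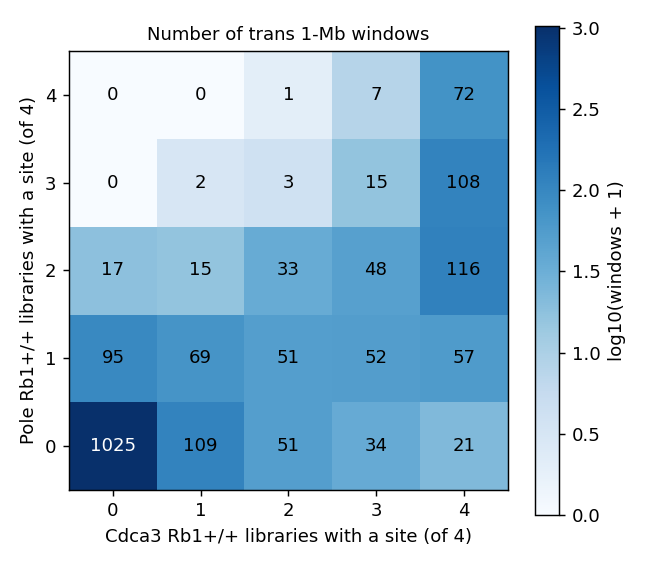
Number of 1-Mb trans windows by how many of 4 Pole (vertical) and 4 Cdca3 (horizontal) Rb1+/+ libraries listed a site; the colour is log10 of the number plus 1. The bottom right corner (21 windows in all Cdca3 and no Pole libraries) and the top left corner (0) are unequal, and 72 windows have a site in all 8.

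The 72 windows listed in every library are the ones both promoters shared most firmly. They lay on 15 of the 17 chromosomes, with 11 on chromosome 7, 8 each on chromosomes 3 and 4, and 7 on chromosome 8. They held 47.2, 35.4, 21.3 and 18.6% of trans sites at Pole and 22.0, 19.1, 16.4 and 16.2% at Cdca3. A window had to be listed even in the shortest Pole lists to enter, so these shares describe the selection. Joined where adjacent, the windows formed 49 runs, 33 of them a single window. The longest runs were on chromosome 7 from 132 to 136 Mb and on chromosome 4 from 147 to 151 Mb. The former held 308, 190, 140 and 92.5 sites per 10000 trans sites at Pole and 105, 110, 96.8 and 103 at Cdca3. The latter held 305, 248, 110 and 120 at Pole and 116, 108, 87.1 and 88.6 at Cdca3. In both runs Pole replicates 1 and 2 stood highest, and Cdca3 libraries differed little. Runs of 3 windows on chromosome 3 (87 to 90 Mb, means 142 ± 66.2 and 75.0 ± 14.8), chromosome 12 (111 to 114 Mb, 171 ± 122 and 94.7 ± 12.7) and chromosome 15 (96 to 99 Mb, 135 ± 63.3 and 82.8 ± 13.6) showed the same wide spread at Pole. Of the 72 windows, 17 were also listed in all 8 Rb1L/L libraries.

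The 21 windows listed in every Cdca3 library and no Pole library formed 19 runs, 17 of them single. The fullest was on chromosome 9 from 57 to 59 Mb, with 31.7, 50.5, 31.1 and 42.5 sites per 10000 at Cdca3. Next was chromosome 11 from 59 to 61 Mb, with 8.14, 31.2, 20.1 and 44.0. In Rb1L/L cultures the chromosome 9 run had means of 55.3 at Cdca3 and 9.89 at Pole, and the chromosome 11 run 32 at Cdca3 with Pole listed at 0. Some single windows had the reverse order in Rb1L/L. On chromosome 8 from 12 to 13 Mb the means were 36.7 at Pole and 5.80 at Cdca3. On chromosome 16 from 13 to 14 Mb they were 19.98 and 13.24. On chromosome 15 from 37 to 38 Mb they were 2.86 and 0.835, and on chromosome 10 from 74 to 75 Mb 2.22 and 1.95. In all the other runs the Rb1L/L mean was higher at Cdca3. Of the 21 windows, 17 had a site in at least 3 of 4 Rb1L/L Cdca3 libraries. At the Pole promoter in Rb1L/L cells, 7 of the 21 were again listed at 0 and 14 had a site in at least 1 library. The same counts were not made over other windows listed in all 4 Cdca3 libraries. The counts of the 21 windows therefore have no background to be read against.

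Each window was then tested by its share. Values were log2 of sites per 10000 trans sites plus 2, and 816 windows with a mean of at least 1 per 10000 entered. At an adjusted p under 0.05, 0 of 816 windows (0.00%) passed limma with the culture as block, and 99 (12.1%) had an unadjusted p under 0.05, 11 higher and 88 lower at Pole. The smallest adjusted p, 0.0884, was shared by 19 windows. Intervals were wide, with a median 95% half-width of 1.75 on the log2 scale, and 0 windows had an interval that lay within 1 log2 unit of no change. The median log2 difference was -0.65 and 559 windows (68.5%) were lower at Pole, where sites were gathered in fewer windows.

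Values of the 2 groups did not overlap in 12 windows higher at Pole (1.47% of those tested) and 50 lower (6.13%). Of the 50, 38 had a lower Rb1L/L mean at Pole, and of the 12, 5 had a higher one. Over all 816 windows the Rb1L/L mean was lower at Pole in 487 and higher in 277. A test of whether the viewpoint difference changed with genotype called 0 of 911 windows (0.00%, limma, smallest adjusted p = 0.667), with 40 at an unadjusted p under 0.05. Its block was the replicate number, shared by both genotypes, so the promoters were not paired within each culture.

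The windows with the smallest p-values did not pass either and are given for their values. The first on the Pole side was chr14:122000001-123000000 (mm9), with 149, 102, 37.3 and 44.4 sites per 10000 at Pole and 22.8, 19.3, 17 and 19.7 at Cdca3. Pole libraries were all above Cdca3 libraries, replicates 1 and 2 by the most (means 83.1 ± 52.5 and 19.7 ± 2.36, log2 difference 1.76 ± 0.54 SE, limma adjusted p = 0.0884). Rb1L/L means were 31.8 at Pole and 15.2 at Cdca3. The second was chr3:122000001-123000000, with 156, 116, 43.5 and 35.5 at Pole and 45.6, 18.1, 21.3 and 18.7 at Cdca3. Here Cdca3 replicate 1 lay above 2 of the Pole libraries, while Pole was higher in 4 of 4 cultures (log2 difference 1.53 ± 0.48, limma adjusted p = 0.0884). It lies in the chromosome 3 segment described above.

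The other named windows on the Pole side rested on some libraries only. The window chr18:24000001-25000000 had 39.0 and 30.4 sites per 10000 in Pole replicates 1 and 4 and was listed at 0 in the other 6 libraries. The window chr8:23000001-24000000 had 35.7 and 21.5 in Pole replicates 3 and 4 and 0 elsewhere. The window chr19:29000001-30000000 had 13.8, 28.0 and 34.2 in Pole replicates 2 to 4 and 6.70 in Cdca3 replicate 3. In Rb1L/L cells the first and second of these were not higher at Pole (3.35 against 5.03, and 0 against 6.04).

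The 5 named windows on the Cdca3 side were listed at 0 in all 4 Pole libraries, so no fold is given. The window chr9:57000001-58000000 had 26.9, 22.4, 19.5 and 18.7 sites per 10000 at Cdca3, the most even of the 5. The neighbouring chr9:58000001-59000000 had 4.88, 28.0, 11.6 and 23.8. The window chr11:59000001-60000000 had 4.07, 28.0, 17 and 24.9, chr14:76000001-77000000 had 30.9, 3.74, 17.7 and 19.2, and chr13:46000001-47000000 had 15.5, 9.35, 17.7 and 15.5. All 5 had a limma adjusted p of 0.0884. With a minimum mean of 3 per 10000 in place of 1, these 5 and the 2 windows named first on the Pole side passed (limma adjusted p = 0.0285). The minimum is a mean over both promoters' libraries, so the 5 windows met it through their Cdca3 values alone. Passing at the higher minimum is therefore no further support for them. In Rb1L/L cells the Cdca3 means of the 5 windows lay above the Pole means. They were 24.2 against 3.04 and 31.2 against 6.85 in the chromosome 9 windows, in the order given, and 13.7 against 11.4 in the chromosome 14 window. In the chromosome 11 and 13 windows they were 19.5 and 9.26 at Cdca3, with Pole listed at 0. Gene content is not given, as the gene tables used here are of another genome build.

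**Figure D5:**
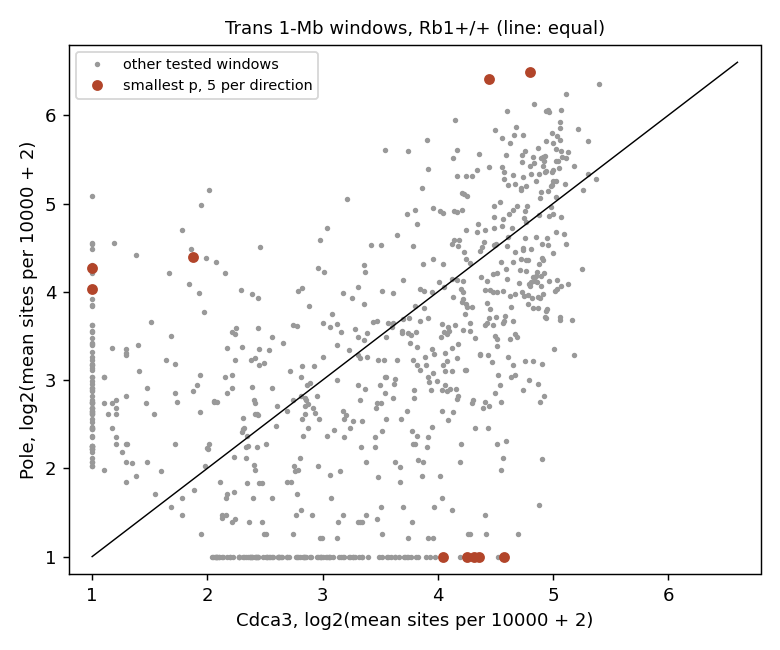
Mean share of 816 tested 1-Mb trans windows at Cdca3 (horizontal) and Pole (vertical), log2 of sites per 10000 plus 2; the line marks equal values and larger points are the 10 windows named in the text. Windows with all 4 libraries of a promoter at 0 lie on the edges at 1, more of them along the Pole edge, and 68.5% of windows lie below the line by the fitted difference.

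Replicates at Pole were less alike than replicates at Cdca3. Across the 816 windows, Pearson's r of log2 shares ran from 0.20 to 0.40 over 6 pairs of Pole libraries (median 0.25) and from 0.57 to 0.72 over 6 pairs of Cdca3 libraries (median 0.61). Between viewpoints it ran from 0.22 to 0.47 over 16 pairs (median 0.37), so a Pole library was on the median closer to a Cdca3 library than to another Pole library. The means of the 4 libraries correlated at r = 0.61 (Spearman's rho 0.55). These are descriptions across windows, which are not independent, and Pole lists hold fewer sites per window, 12.8 to 15.0 per occupied window against 23.6 to 28.6.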

How the data were processed

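Circular chromosome conformation capture with sequencing used HindIII, then NlaIII, and the PCR products were pooled in equal amounts, per the labels' protocols. For each library the authors deposited a list of restriction-site positions with a p-value or q-value under 0.05 (which of these is not stated) and a list of region positions; every site lay inside a region of its library. Positions are on mm9 (submitters' processing notes). Aligner, caller and cutoffs were not given in the sources used here. Read counts are absent from the lists, so depth is unknown, and a list that ends at a threshold moves with depth. Precision is set by the 4 libraries per group.

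Sites were counted in Python 3.11.15 with numpy 2.4.6, pandas 2.3.3 and scipy 1.17.1. Single values were compared by exact permutation over 70 assignments (95% intervals by inverting it), and chromosomes and windows with limma 3.58.1 in R 4.3.3, the replicate number as block, Benjamini-Hochberg adjusted. The scripts were tested on simulated data. The pairing comes from the labels, which give libraries of equal number and genotype the same pair identifier; deviations from the group means correlated at r = 0.0464, 0.0623, 0.0332 and 0.0646 for equal numbers against a mean of -0.0168 for others. The best match had the same number for 1 of 4 Pole and 2 of 4 Cdca3 libraries, so the data themselves show little pairing. The labels number fibroblast pairs and do not say how the cultures arose, so p-values measure the spread between these cultures. The promoters' positions are not marked, and the empty stretch taken to hold each was chosen with its approximate position from general knowledge. Windows named are those called, filled up to 5 per direction by smallest p. The comparison, and the lists of chromosomes and motifs, were chosen with earlier results of these data known; the numbers of cis and of trans sites were added after values were seen. Alternatives were leaving out each replicate, dropping the block, sites with a deposited value under 0.01, other promoter positions, bins, pseudocounts, filters, window sizes and a centring.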

Additional observations from a re-analysis of the deposited data

Results flagged for a closer look

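A single library stood apart from the other 3 of its group in 5 of 65 groups searched, its gap to the nearest of them being above Dixon's critical value. Chance flags about 1 in 20 groups. On chromosome 2, Pole replicate 1 had 6.06% of its trans sites against 9.52 to 9.89% in the others. On chromosome 12, Cdca3 replicate 1 had 6.25% against 4.84 to 5.06%, and on chromosome 13 it had 2.86% against 4.37 to 4.41%. In the window of chromosome 3 from 122 to 123 Mb, Cdca3 replicate 1 had 45.6 sites per 10000 against 18.1 to 21.3. In the window of chromosome 19 from 29 to 30 Mb, Cdca3 replicate 3 had 6.70 and the others were listed at 0; with 3 values at 0, any other value above 0 meets the criterion, so this case carries no information about an outlier.

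The X chromosome lies outside the windows compared and held listed sites in all 8 libraries. It had a mean of 3.74% of sites outside chromosome 5 at Pole and 2.48% of sites outside chromosome 6 at Cdca3, with the Pole library higher in 4 of 4 cultures and overlapping ranges. No library without a viewpoint was analysed here to give a background.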

How the results depend on the processing

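Pole against Cdca3 kept its direction for site numbers and cis share under every alternative run. With the replicate block (paired sign flips, exact, smallest possible p 0.125), the differences of -12981 sites, 24.8 points of cis share and -10820.5 trans sites each had p = 0.125. Leaving out 1 replicate number gave -13424 to -12332 sites, 23.3 to 26.4 points and -11272 to -10287 trans sites, each with an exact permutation p of 0.1, the smallest 3 against 3 can give. The share within 10 Mb turned to -0.274 points with stricter sites, -1.74 within 5 Mb, -0.737 from the approximate promoter position, and -1.83 and -2.0 from the ends of the empty stretch; it was 5.95 within 20 Mb and 5.48 on the centromeric side alone. The slope difference was -0.196 from the approximate position, -0.488 from the telomeric end and -0.251 in 5-Mb bins (exact permutation p = 0.0286 each), and turned to 0.413 from the centromeric end, 0.0662 over both sides and 0.105 per distinct listed site. Counts of windows called by limma were 17 (2 higher, 15 lower at Pole) with a minimum of 3 per 10000, 1 among windows listed in all 8 libraries (a filter that favours Pole, with a median log2 difference of 0.43), and 35 (0 higher, 35 lower) centred on those windows, where the median difference moved from -0.65 to -1.15; leaving out replicates gave 0 to 1, the 1 without replicate 1. Chromosomes called were 0 by exact permutation, 2 with stricter sites (chromosomes 11 and 19) and 0 to 1 with replicates left out, 0 without replicate 1 or 3. Without the replicate block 0 windows and 1 chromosome were called. The 10 named windows kept their direction in 122 alternatives, and 13 of these passed. A window can meet a minimum mean through the libraries of 1 promoter alone.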
